A study of Mus musculus with 8 samples.

Results

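Closely clustered regions of hydroxymethylated DNA in the mouse hippocampus were described in animals that had received protons or a sham exposure. A clustered region was defined as an autosomal region of exactly 2.544 kb, the most frequent width, in the authors' hippocampal peak list whose gap to the nearest other listed region, of any width, was 10000 bp or less. By this rule 4267 of the 21990 hippocampal regions were clustered (19.4%), which is 25.2% of the 16965 autosomal regions of that width. They covered 10.9 Mb. The other 12698 autosomal regions of 2.544 kb stood farther from any neighbour and are called isolated regions here. A further 4744 autosomal regions had other widths, 4481 of them wider and 263 narrower.

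The study asked about long-term effects of proton radiation on DNA in brain and heart. Hippocampi came from C57BL/6 mice, with no other genotype named, taken 20 weeks after a sham exposure (0 Gy) or 1 Gy of protons. Both doses had 2 libraries, each made from the pooled DNA of several mice, and no age of the mice was used here. The series text speaks of 5 mice per treatment group and does not say how they were divided over the pools. A pool hides the spread between its animals, so the spread between pools is the only error available. The same assay in left ventricle is used below only to look up clustered regions in a second tissue.

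5-Hydroxymethylcytosine (5hmC) is made from 5-methylcytosine by the TET dioxygenases. It is a step on the path of active DNA demethylation and also a lasting mark in its own right. It is abundant in neurons, where it is known from gene bodies and enhancers, so neighbouring stretches of a gene can carry it together. The assay enriched 5hmC-bearing fragments with an antibody (DIP) before sequencing, and a region's value is the number of reads counted in it. The regions carry coordinates of the mouse build mm9. Genes and sequences at these positions were not analysed here, and the labelled tissue was not checked against gene markers.

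Depth differed between the doses. In pooled tissue, fewer cells that carry the mark and less of it per cell cannot be told apart. The sham pools held 266361 and 110699 counts over all regions and the irradiated pools 1912037 and 1628905. The clustered regions held 59289 and 26428 counts under sham exposure, then 586796 and 473822 after 1 Gy. A region at 0 could still have held 3 counts, equal to 11.3 and 27.1 CPM (counts scaled to the library total) after sham exposure and to 1.57 and 1.84 CPM after 1 Gy. In the sham pools 163 and 1077 clustered regions stood at 0, and in the irradiated pools none did. Ranks of the clustered regions were alike in the irradiated pools (Spearman correlation 0.599 across 4267 regions, which are not independent replicates) and opposed in the sham pools (-0.41).

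The clustered regions stood mostly in pairs. Consecutive autosomal regions had a median gap of 50081 bp, and 3251 of 21690 gaps (15.0%) were within the limit. The nearest gap of a clustered region ranged from 1 to 9999 bp, with a median of 4583 bp and quartiles at 2102 and 7110 bp. The number of gaps per kb went from 351 in the first kb and 383 in the next to 288 just inside the limit of 10 kb. It was 287 just outside the limit, so the limit did not fall at a break in the spacing. The number was 167 per kb between 20 and 50 kb.

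A run was a chain of regions of any width with gaps within the limit. The 4267 clustered regions lay in 2426 runs, of which 1953 (80.5%) held 2 regions and 377 (15.5%) held 3. There were 67 runs of 4 regions, 19 of 5, 3 of 6, 6 of 7 and a single run of 9. Runs of 2 held 3174 clustered regions (74.4%), and the 29 runs of 5 or more held 91. In 1380 runs every region was clustered and 2.544 kb wide, and the other runs included regions of other widths. The median run spanned 11248 bp and the widest 59040 bp. Of the clustered regions, 418 had a neighbour within the limit on both sides. The nearest neighbour was itself 2.544 kb wide for 75.2% of clustered and 80.8% of isolated regions. Both partners were 2.544 kb wide in 53.9% of gaps within the limit and in 63.8% of wider gaps.

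**Figure D1:**
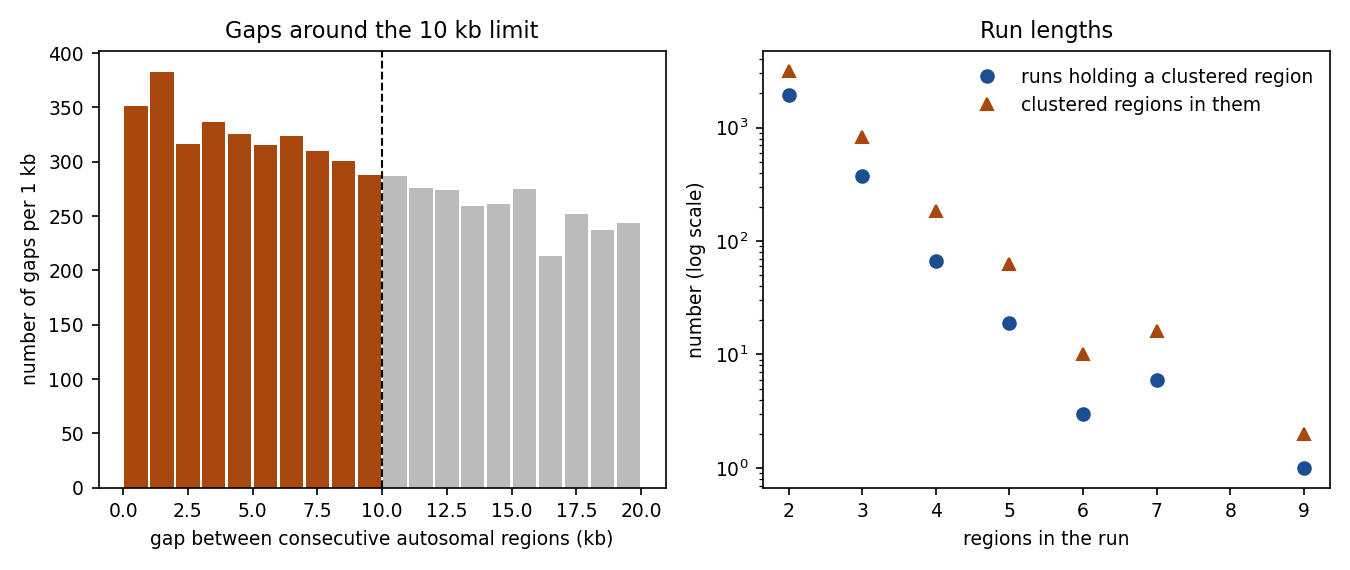
Left, number of gaps between consecutive autosomal regions in bins of 1 kb, with gaps within the 10 kb limit in brown and the limit as a dashed line. Right, number of runs (circles) and of clustered regions in them (triangles) by regions per run, on a log scale. Gap numbers go from 351 in the first kb to 288 just inside the limit, and 1953 of 2426 runs hold 2 regions.

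The run with the most regions stood on chromosome 4 at 134172474 to 134220459 (build mm9) and held 9 regions, 2 of them clustered regions of 2.544 kb. The clustered region at 134188122 to 134190665 had 4 and 13 counts under sham exposure, then 126 and 87 after 1 Gy. The one at 134197951 to 134200494 had 15 and 6 under sham exposure against 87 and 87 after 1 Gy. Sham pool 1 was the lower sham pool at the first and the higher at the second, although less than 10 kb lay between them.

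The run holding the most clustered regions, 6 of its 7, stood on chromosome 5 at 139842632 to 139876549. Along its 6 clustered regions the counts of irradiated pool 1 were 102, 118, 77, 109, 114 and 85, and those of irradiated pool 2 were 81, 107, 56, 85, 118 and 41. Sham pool 1 had 8, 13, 5, 3, 12 and 12 counts there and sham pool 2 had 8, 0, 17, 12, 7 and 1. The irradiated pools thus had their lowest counts at the third and the last of these regions, while the sham pools took turns in being the higher one. The log2 fold changes of 1 Gy against 0 Gy in edgeR lay between -0.85 (SE 1.13) and 1.57 (SE 1.09), none past the threshold. There were 6 runs of 7 regions, and the 2 with the shortest spans are described. The other of these, on chromosome 1 at 90125389 to 90163060, spanned 37672 bp and held a single clustered region, at 90152892 to 90155435. That region had 20 and 7 counts under sham exposure against 311 and 254 after 1 Gy, and both irradiated counts exceeded those of every clustered region of the other named runs.

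**Figure D2:**
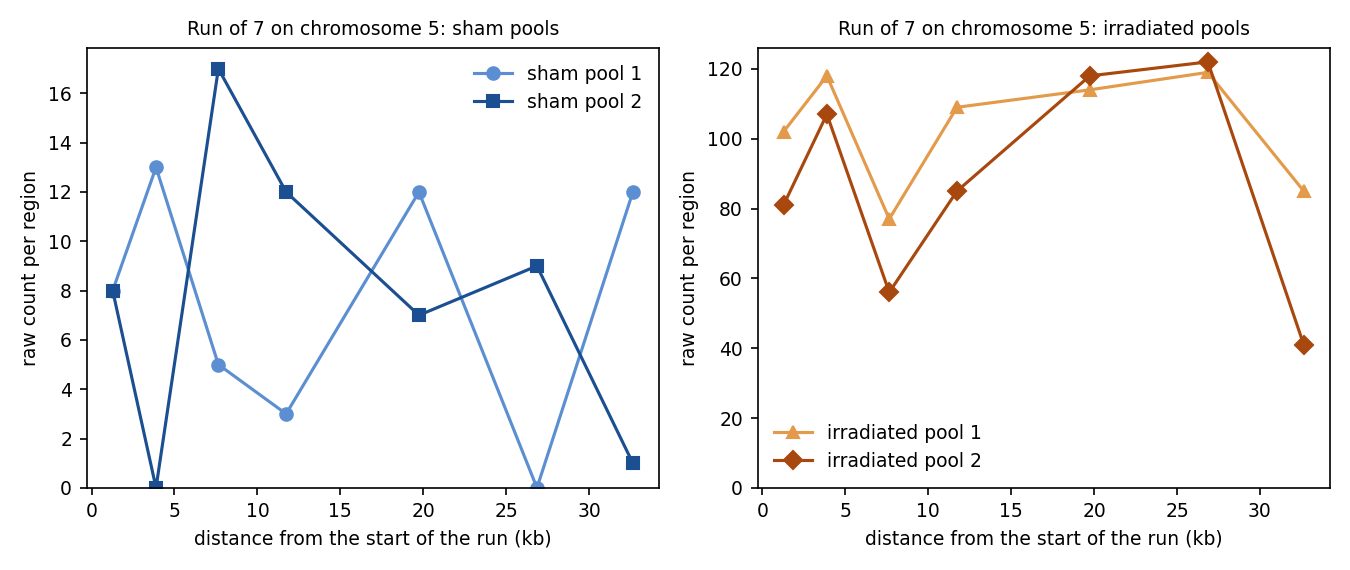
Raw count of each region (y axis) along the run on chromosome 5 against its distance from the start of the run in kb (x axis), for both sham pools (left) and both irradiated pools (right). The irradiated pools dip together at the third region (77 and 56 counts), and the sham pools hold 0 to 17 counts in an order that changes from region to region.

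The tightest pairs of clustered regions lay 9, 9 and 18 bp apart, so that they nearly touched. On chromosome 19 the partners at 4830559 to 4833102 and 4833112 to 4835655 had 82 and 49 counts in irradiated pool 1 and 55 and 58 in irradiated pool 2. In sham pool 1 they had 5 and 13 counts and in sham pool 2 they had 10 and 4. On chromosome 7, 148826003 to 148828546 and 148828556 to 148831099 had 100 and 79 counts in irradiated pool 1 and 117 and 87 in irradiated pool 2. Sham pool 1 held 7 and 17 counts there and sham pool 2 held 2 and 3. On chromosome 17 the pair at 29292621 and 29295183 had 101 and 92, then 96 and 65 counts in the irradiated pools. In sham pool 2 its first partner had 19 counts and its second 0, against 8 and 10 in sham pool 1. At both 9 bp gaps each sham pool had counts in both partners, and at 18 bp sham pool 2 had them in only 1.

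At the limit of the rule, the clustered regions with the widest gaps were 9999, 9995 and 9991 bp from their neighbour and held 9, 15 and 15 counts in sham pool 1 and 56, 80 and 60 in irradiated pool 1. The isolated regions with the narrowest gaps, 10003, 10006 and 10006 bp, held 14, 12 and 0 counts in sham pool 1 and 14, 32 and 106 in irradiated pool 1.

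Counts of clustered regions were set against those of isolated regions of the same width, library by library. The median clustered region had 70 counts in irradiated pool 1 and 62 in irradiated pool 2, and the median isolated region 55.5 and 50 counts. In the sham pools the medians were 12 and 2 for clustered and 13 and 2 for isolated regions. The ratio of the medians was therefore 1.26 and 1.24 in the irradiated pools and 0.923 and 1.00 in the sham pools. The irradiated pools gave clustered regions the higher median, and in sham pool 2 a median of 2 counts was too coarse to show a difference of that size. The mean log2 ratio of the medians over the 4 libraries was 0.13 ± 0.22 (SD, n = 4 libraries, exact sign-flip permutation p = 0.5, two-sided, and 4 libraries cannot give a p below 0.13). With means in place of medians it was 0.80 ± 0.49 (SD, n = 4, exact permutation p = 0.13), with clustered regions higher in 4 of 4 libraries. That value rested on a pair on chromosome 2 described below, without which it was 0.15 ± 0.16 (exact permutation p = 0.25), with -0.09 in sham pool 1, 0.20 in sham pool 2 and 0.24 and 0.23 in the irradiated pools.

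In the irradiated pools the counts fell off gradually with the distance to the nearest region. Single-width regions within 1 kb of a neighbour had medians of 71 and 62 counts in the irradiated pools. Those 5 to 10 kb away had 68 and 59, those 20 to 50 kb away 60 and 54, and those 100 kb to 1 Mb away 38 and 34. In sham pool 1 the median went the other way, from 12 counts within 1 kb to 14 beyond 100 kb, and in sham pool 2 from 2 to 1. Within the limit the irradiated medians differed little (68 to 72 in pool 1), and most of the fall lay among isolated regions. Regions and gaps are not replicates, so these medians carry no test.

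**Figure D3:**
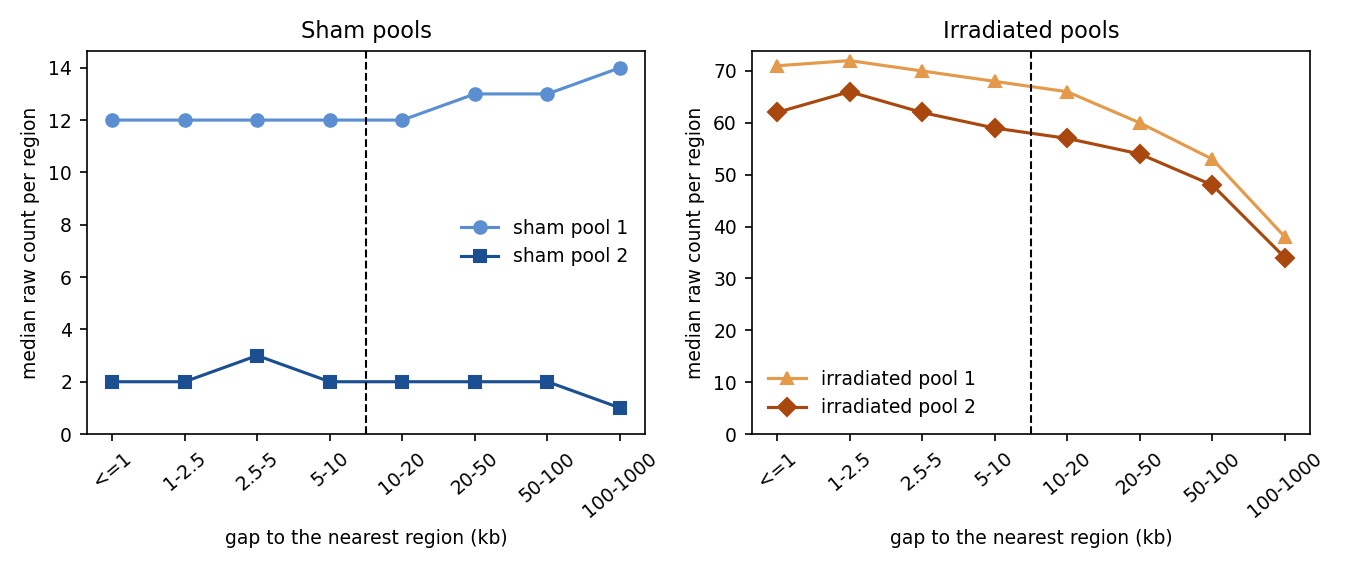
Median raw count per 2.544 kb region (y axis) against the gap to the nearest region in kb (x axis) in the sham pools (left) and irradiated pools (right), with the 10 kb limit as a dashed line. Irradiated pool 1 goes from 71 within 1 kb to 38 beyond 100 kb, while sham pool 1 goes from 12 to 14.

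Clustered regions lay in denser stretches than isolated ones beyond the limit as well. Between 12.544 and 500 kb from its centre a clustered region had a median of 14 other regions (quartiles 10 and 18), and an isolated region had 11 (quartiles 6 and 16). Regions of other widths also had a median of 14 (quartiles 10 and 19). Per chromosome the share of single-width regions that were clustered ranged from 20.2% on chromosome 13 to 29.3% on chromosome 11, with a median of 24.6% over the 19 autosomes. Clustered regions per Mb ranged from 1.34 to 2.56 on the same chromosomes. The share rose with the regions per Mb of all widths (Spearman correlation 0.688 across 19 chromosomes, a description since both measures come from the same list).

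A pair of clustered regions on chromosome 2 held a large part of the counts of clustered regions. The sequence of this pair was not analysed and no input control was used here. Whether its counts come from hydroxymethylated DNA or from the mapping of repeated sequence was therefore not tested. The region at 98505767 to 98508310 had 4655 and 7081 counts under sham exposure, then 207440 and 150270 after 1 Gy. Its partner at 98501468 to 98504011, 1755 bp away, had 2362 and 2636 under sham exposure against 72350 and 55077 after 1 Gy. Together they made up 2.63% and 8.78% of all counts of the sham libraries and 14.6% and 12.6% of those of the irradiated libraries. They made up 11.8% and 36.8% of the counts of clustered regions under sham exposure, then 47.7% and 43.3% after 1 Gy. Both irradiated pools held larger shares than both sham pools, and the sham shares differed more from each other than the irradiated ones did. The log2 fold changes in edgeR were 1.60 (SE 3.87) and 1.44 (SE 2.5), with an FDR of 1.00 for both. They were also positive with DESeq2-type size factors (1.32 and 1.17), total counts (1.30 and 1.13) and DESeq2 (1.33 and 1.17). Of the scalings, only loess offsets, which are fitted on a region's level, turned them negative (-0.52 and -0.74). Without sham pool 1 both passed, at 0.88 (edgeR FDR 3.34e-07) and 0.82 (0.000258), and without sham pool 2 at 2.99 (1.49e-45) and 2.48 (7.12e-25).

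The clustered region ranked next by its share of counts summed over the 4 libraries, also on chromosome 2 at 116798985 to 116801528, had 25 and 192 counts under sham exposure, then 528 and 130 after 1 Gy. Its share was 0.173% in sham pool 2, against 0.00939% in sham pool 1 and 0.0276% and 0.00798% in the irradiated pools. In irradiated pool 2 the region named above on chromosome 1 held more counts (254). The neighbour 1346 bp away had 14, 2, 91 and 68 counts in the same order, so the high values of sham pool 2 and irradiated pool 1 were not seen next to it. edgeR gave a log2 fold change of -2.07 (SE 1.36, FDR 1.00). Without sham pool 1 it was -3.03 (edgeR FDR 1.04e-19) and without sham pool 2 it was 1.41 (0.00394), so the direction turned with the sham pool used.

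The share of a library's counts that fell in clustered regions was 22.3% (95% exact Clopper-Pearson interval 22.1 to 22.4) and 23.9% (23.6 to 24.1) in the sham pools. It was 30.7% (30.6 to 30.8) and 29.1% (29.0 to 29.2) in the irradiated pools. The intervals hold counting error alone and no spread between pools. PCR copies were not marked by molecular identifiers, so even the counting error can be understated. The groups did not overlap, at 23.1% ± 1.14 against 29.9% ± 1.13 (SD, n = 2 pools each, exact permutation p = 0.33, the smallest this design allows). Without the high pair on chromosome 2 the shares were 20.2% and 16.5% under sham exposure, then 18.8% and 18.9% after 1 Gy, so the irradiated pools lay between the sham pools. The difference went from 6.82 to 0.482 percentage points.

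The effect of 1 Gy was tested in all 21498 regions that passed the filter on low counts, and 4240 of the 4267 clustered regions were among them. None of them passed a false discovery rate (FDR, Benjamini-Hochberg) of 0.05 in edgeR's quasi-likelihood test, as over all tested regions (0%). An unadjusted p under 0.05 was found for 16 clustered regions with a higher and 7 with a lower value (0.377% and 0.165%), below the 0.73% and 0.312% of all tested regions. DESeq2 called 0 clustered regions, against 0.00465% of all. The spread between pools was large, with a biological coefficient of variation of 0.602 and a median SE of a log2 fold change of 0.95.

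Both irradiated values exceeded both sham values in 1171 clustered regions (27.6%, against 22.6% of all tested regions) and below them in 318 (7.50%, against 8.46%). In the other 2751 the groups overlapped. Clustered regions thus leaned to higher values somewhat more than the whole list, in CPM scaled by TMM (trimmed mean of M-values). Regions of other widths leaned further, with 32.6% above and 2.64% below, so the lean was not particular to clustered regions. The split depended on the scaling. Of the clustered regions whose groups did not overlap, 78.6% were higher under TMM, 61.9% with DESeq2-type size factors and 51.0% with total counts. These shares were 72.8%, 55.5% and 46.5% over all tested regions and 92.5%, 83.7% and 77.9% in regions of other widths. The median log2 fold change was 0.23 in clustered regions, 0.11 in all tested regions, -0.06 in isolated ones and 0.45 in regions of other widths. Without sham pool 1 the clustered median was 1.00 and that of all tested regions 0.71, and without sham pool 2 they were 0.16 and 0.11. With DESeq2-type factors the medians were -0.03 in clustered and -0.15 in all regions, with total counts -0.13 and -0.25, and with loess offsets 0.00 and -0.04. The sign of the clustered median therefore changed with the scaling, and its distance from the median of all regions was 0.12 under the first 3 and under 0.05 with loess offsets.

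The count of calls depended on which sham pools were used. Without sham pool 1, edgeR called 606 clustered regions higher (14.2%, against 10.1% of all tested) and 170 lower (3.99%, against 5.32%). Without sham pool 2 it called 374 higher (8.76%, against 15.4%) and 91 lower (2.13%, against 5.23%). The share of higher calls was thus above that of the whole list in the first setting and below it in the second, while the share of lower calls was below it in both. In both settings the lone sham pool was assumed to vary like the irradiated pools. Without either irradiated pool 0 were called.

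Separation of the groups went with the length of the run. Among clustered regions in runs of 2, both irradiated pools were above both sham pools in 26.0% of those tested (818 of 3151). The share was 30.1% in runs of 3, 36.8% in runs of 4 and 44.0% in runs of 5 to 9 (40 of 91). Values below both sham pools became rarer, at 8.38%, 5.54%, 3.24% and 3.30%. With total counts as scaling the order was kept, at 12.6%, 17.5%, 24.3% and 29.7% for higher values against 12.5% of all tested regions. Median raw counts moved in the same order, from 68 and 60 in the irradiated pools in runs of 2 to 87 and 77 in runs of 5 to 9, and from 12 to 10 in sham pool 1. The part of these count levels in the separation was not tested. The regions of a run are not independent, and only 91 stood in the longest runs.

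**Figure D4:**
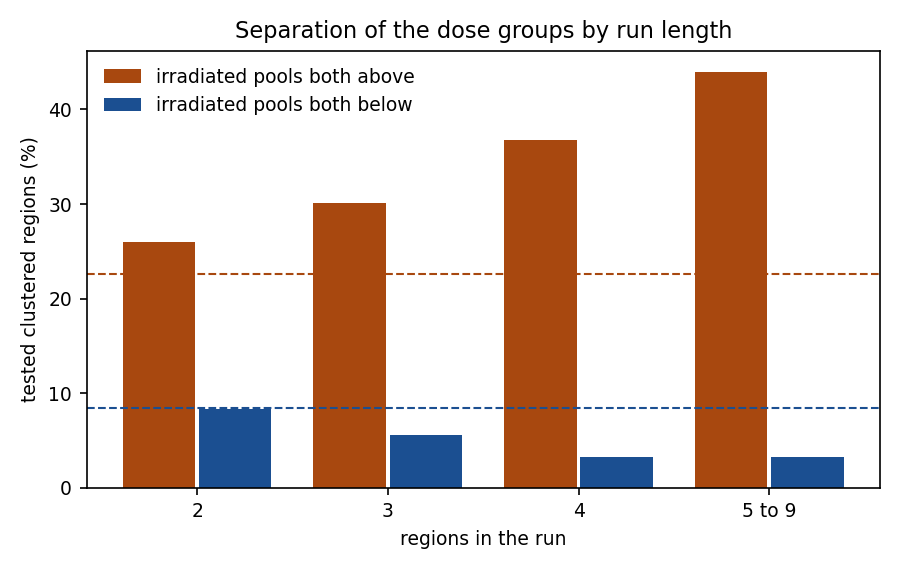
Share of tested clustered regions (y axis) whose irradiated pools both lay above (brown) or both below (blue) the sham pools, in TMM-scaled CPM, by number of regions in the run (x axis). Dashed lines give the shares over all tested regions (22.6% and 8.46%), and the brown bars go from 26.0% in runs of 2 to 44.0% in runs of 5 to 9.

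The clustered region with the smallest p of a higher value stood on chromosome 10 at 60835286 to 60837829, 2716 bp from its neighbour. It had 5 and 1 counts under sham exposure, then 111 and 92 after 1 Gy, and the groups did not overlap. In TMM-scaled CPM this was 12.2 ± 5.12 against 65.2 ± 3.14 (SD, n = 2 pools each). The log2 fold change was 2.28 (SE 0.80, edgeR FDR 1.00). Its neighbour at 60829924 to 60832569 had 7 and 4 counts against 79 and 66, with a log2 fold change of 0.80.

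The next 4 by p started at 56677210 on chromosome 9, at 55621240 on chromosome 14, at 122840378 on chromosome 8 and at 120079004 on chromosome 11. They held 4 to 6 counts in sham pool 1, 0 to 2 in sham pool 2 and 84 to 129 in the irradiated pools. Their log2 fold changes were 2.03 to 2.54, and those of the neighbours within the limit 0.37, 0.24, 1.05 and 1.36. All neighbours within the limit thus had a positive value, as had the median of all clustered regions (0.23). Each was smaller than that of the named region, which the choice of these regions by p made likely beforehand. Without sham pool 2 all 5 regions passed in edgeR (FDR 0.00295 to 0.0266), and without sham pool 1 the regions on chromosomes 10, 9 and 8 did. They had been chosen by p on these same pools, so passing there is no independent support.

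Among clustered regions with lower values after 1 Gy, the 5 that ranked first by p started at 126145099 on chromosome 4, at 120665023 and 34811470 on chromosome 12, at 19962599 on chromosome 1 and at 6793403 on chromosome 15. The one on chromosome 4 had 9 and 17 counts under sham exposure against 25 and 5 after 1 Gy, which is 87.2 ± 83.0 against 9.31 ± 8.32 CPM (SD, n = 2). Its log2 fold change was -3.07 (SE 1.05, edgeR FDR 1.00). Its neighbour 6103 bp away had 10 and 7 counts against 117 and 92 and a log2 fold change of 0.59, so the direction differed within the run. The 4 others had log2 fold changes of -2.37 to -1.71, with 8 to 18 counts in the sham pools and 16 to 37 in the irradiated pools. In each of these 4 the raw counts were higher in both irradiated pools and the CPM lower. Without sham pool 1 all 5 passed in edgeR (FDR 1.66e-05 to 0.0495) and without sham pool 2 none did (0.0888 to 0.439).

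Neighbouring clustered regions were compared directly in 1752 pairs within the limit, of which 1730 were tested in both partners. The dose difference of both partners lay on the same side of the median of all tested regions in 990 pairs, 57.2% (95% exact binomial interval 54.9 to 59.6, which treats pairs as independent). Consecutive single-width regions farther apart than the limit shared a side in 58.9% of 11127 pairs (58.0 to 59.8). The Spearman correlation of the log2 fold changes was 0.189 in near and 0.218 in far pairs. By the share of pairs, close neighbours thus stood on the same side of this median about as often as distant ones. The median was 0.11, against 0.23 in clustered and -0.06 in isolated regions. The share of pairs that such offsets alone would give was not computed, so the shares do not compare agreement as such. By gap, the correlation of the log2 fold changes was 0.287 within 1 kb and between 0.153 and 0.213 from 1 to 10 kb. It was between 0.146 and 0.172 from 10 to 100 kb, 0.221 from 100 kb to 1 Mb and 0.132 over 1 Mb. The highest of these values was that within 1 kb, which rested on 183 pairs and has no interval. The correlation did not fall steadily with distance. Within 1 kb the share was 61.7% of 183 pairs (54.3 to 68.8), between 5 and 10 kb 55.7%, between 10 and 20 kb 55.1%, and from 100 kb to 1 Mb 62.6%. In the 80 pairs over 1 Mb apart it was 81.2% (71.0 to 89.1), so the share was not highest at the smallest gaps. The correlation of 0.132 in these pairs was the lowest by gap, so their high share did not go with a high correlation. With loess offsets, which remove a trend of the fold change with the level, it was 50.8% in near and 50.3% in far pairs. Without sham pool 1 it was 50.5% and 50.2%.

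Differences between pools of the same dose were hardly shared by near neighbours. Sham pool 2 against sham pool 1 placed both partners on the same side of the median in 50.2% of near pairs, and irradiated pool 2 against pool 1 in 50.3%. The correlations were 0.015 and 0.009.

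The level itself was correlated between neighbours in the deeper irradiated pools and hardly in the sham pools. Across the 1730 near pairs the Spearman correlation of log2 CPM was 0.322 and 0.341 in the irradiated pools, but only 0.058 and -0.002 after sham exposure. In far pairs it was 0.278 and 0.288, and 0.012 and 0.002. All partners of a library share its depth, and the median count in sham pool 2 was 2, so its correlation says little. In sham pool 1 the median was 12, against 70 and 62 in the irradiated pools. The part of depth in the contrast between the doses was not tested. Near minus far was 0.034 ± 0.026 (SD, n = 4 libraries, exact sign-flip permutation p = 0.25), positive in 3 of 4 libraries. Against pairs 10 to 100 kb apart only, it was 0.068 and positive in 4 of 4 (exact permutation p = 0.13, the smallest possible). In libraries thinned to equal totals the near minus far value was 0.00. The larger count of a pair was a median of 1.39 and 1.36 times the smaller in the irradiated pools, 1.41 times in sham pool 1 and 3.0 times in sham pool 2 (with 0.5 counts added).

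**Figure D5:**
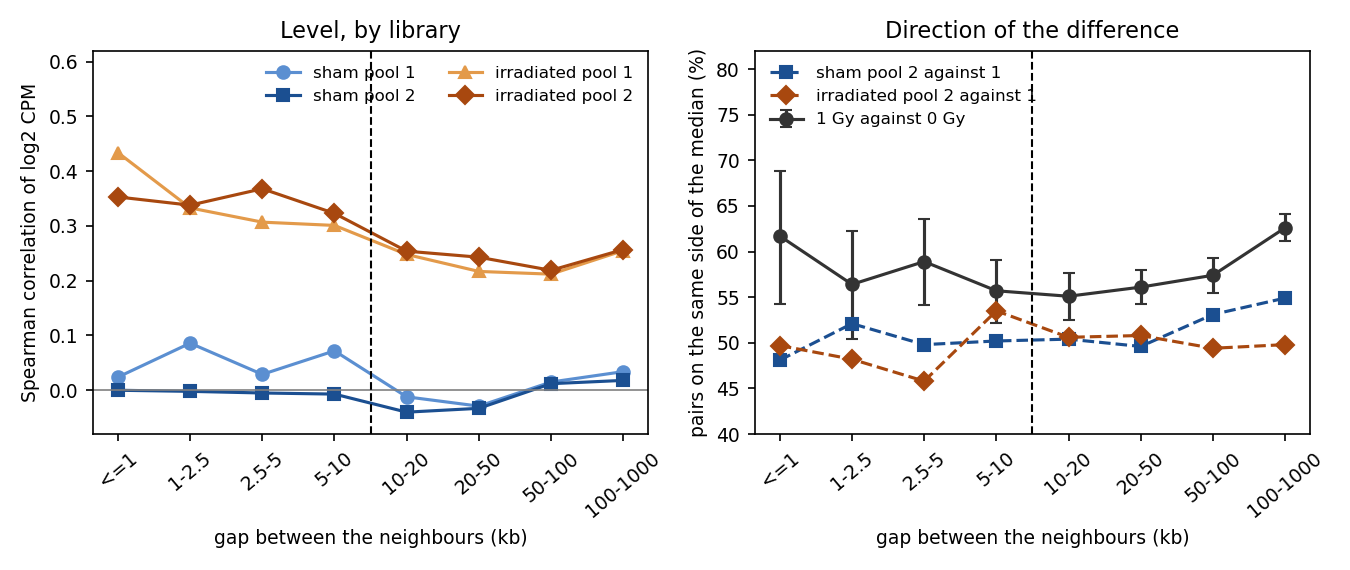
Agreement of consecutive 2.544 kb regions against the gap between them in kb (x axis, gaps up to 1 Mb), with the 10 kb limit as a dashed line. Left, Spearman correlation of log2 CPM in each library, with irradiated pools between 0.212 and 0.434 and sham pools between -0.040 and 0.086. Right, share of pairs on the same side of the median for dose (black, with 95% exact binomial intervals) and for pool 2 against pool 1 within a dose (blue, brown), where dose lies between 55.1% and 62.6%.

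Sham pool 1 had a step in its counts that also showed in clustered regions, since 334 of them had 11 counts and 460 had 12. In isolated regions the numbers were 755 and 1530. Clustered regions reached 12 counts in sham pool 1 in 57.4% of cases, against 67.0% of isolated regions. The 2451 clustered regions that did had medians of 1 count in sham pool 2 and 63 and 57 in the irradiated pools, and the 1816 that did not had 5 counts and 79 and 68. Clustered regions high in sham pool 1 were therefore lower in every other library. Both partners of a near pair reached 12 counts in 34.9% of pairs, a single partner in 45.9% and neither in 19.2%. In far pairs these shares were 43.9%, 43.8% and 12.3%. These counts are part of the sham side of the dose difference, and the part of the step in that difference was not tested.

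Both partners were separated upward in 155 of the 1730 near pairs (8.96%, against 4.43% of far pairs). Both were separated downward in 11 (0.636%, against 1.55%), and they went in opposite directions in 44 (2.54%, against 2.61%). Taken singly, clustered regions were also separated upward more often than isolated ones (27.6% against 17.2%). The part of these single rates in the pair shares was not tested. Of 205 runs with at least 3 tested clustered regions, 9 had all of them higher, none had all lower, 9 mixed higher and lower ones, and 44 had none whose groups were separated. In 121 runs some were higher and none lower, and in 22 some were lower and none higher. No comparison set was formed for these runs.

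The upward pair with the smallest p in both partners stood on chromosome 11, 7446 bp apart. Its partner at 53354010 to 53356553 had 10 and 0 counts under sham exposure against 85 and 118 after 1 Gy, and that at 53364000 to 53366543 had 7 and 3 against 111 and 74. The log2 fold changes were 1.74 (SE 1.00) and 1.32 (SE 0.75). The next pairs were on chromosome 11 at 8464105 and 8473393 (log2 fold changes 1.62 and 1.66) and on chromosome 3 at 52457099 and 52461062 (1.60 and 2.29). In both of these, 1 partner stood at 0 or both did in sham pool 2.

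The downward pair with the smallest p was on chromosome 12 at 120654282 to 120656825 and 120665023 to 120667566. Its partners had 14 and 4 counts under sham exposure against 25 and 17 after 1 Gy, and 16 and 10 against 26 and 23. The log2 fold changes were -1.56 (SE 1.15) and -2.05 (SE 0.71). The others were on chromosome 4 at 82221139 and 82228978 (-0.85 and -1.26) and on chromosome 17 at 41014246 and 41019932 (-0.89 and -1.72). None of these 12 partner regions passed the FDR (1.00 for each in edgeR).

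Clustered regions were found in the ventricular region list more often than isolated ones and less often than regions of other widths. Of 4267 clustered regions 287 (6.73%, 95% exact binomial interval 5.99 to 7.52) overlapped the ventricular list by 1 bp or more, against 569 of 12698 isolated regions (4.48%, 4.13 to 4.86) and 473 of 4744 regions of other widths (9.97%, 9.13 to 10.9). The list has no replicates, so these intervals hold no spread between animals. The share was 8.48% of regions within 1 kb of a neighbour, 6.14% of those 5 to 10 kb away, 5.81% at 10 to 20 kb and 2.45% from 100 kb to 1 Mb. It went from 6.55% in runs of 2 to 9.89% in runs of 5 to 9 (9 of 91). Irradiated hippocampal counts moved the same way, as given above, and their part in the overlap was not tested. The overlapping clustered regions had medians of 83 and 72 counts in the irradiated hippocampal pools. Both partners met a ventricular region in 19 of 1752 pairs, the same one in 12 of them, and a single partner did in 187. With 6.73% of clustered regions overlapping, few pairs could do so, and whether clustering itself was shared was not tested.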

How the data were processed

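5hmC DIP-seq of hippocampus was analysed in 4 libraries (2 pools per dose), with the ventricular region list of the same series as a second readout. Values are raw counts, as deposited: whole-number read counts of each merged peak. CASAVA (1.8.2), Bowtie (1.0.0), DESeq2 and mm9 are listed, without roles, per the submitters' processing notes. Peak calling, merging, duplicate removal and any input control: not given in the sources used here. Interval starts were raised by 1, taking the intervals as BED.

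Dose was tested over all regions with edgeR 4.0.16 (R 4.3.3), with TMM, filterByExpr and a Benjamini-Hochberg FDR of 0.05. Neighbour levels used log2 CPM with 0.5 counts added. Exact permutation tests over libraries were two-sided. Scripts were tested on simulated data. Whether pools are separate biological samples rests on the labels.

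Alternatives were DESeq2 1.42.0, other scalings and filters, an FDR of 0.1, each library left out, a replicate block, gap limits of 5 and 20 kb, thinned libraries and other summaries. Named regions are the 5 smallest p per direction without overlap between groups, the 3 longest runs, tightest pairs, pairs separated alike per direction and largest shares, and those nearest the limit. The clustered regions and these lists were chosen with earlier results of these data known. The chromosome 2 pair left out, the pairs 10 to 100 kb apart and the step at 12 counts were chosen after values had been seen.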

Additional observations from a re-analysis of the deposited data

How the results depend on the processing

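The count of clustered regions called for dose was 0 with DESeq2, DESeq2-type factors, total counts, loess offsets, either other filter, an FDR of 0.1, gap limits of 5 and 20 kb and the replicate block. With 1 library left out it ranged from 0 to 776, with 465 without sham pool 2 and 776 without sham pool 1. With sham pool 1 or sham pool 2 left out, regions over the whole list were called as well, at the shares given above. These counts are therefore not particular to clustered regions, and they rest on a lone sham pool assumed to vary like the irradiated pools. The replicate block gave a median log2 fold change of 0.54, against 0.45 in all regions. Pools of the same number deviated from their group means with a correlation of -0.006, so the numbers are not known to pair the pools. The share of near pairs on the same side of the median for dose, 57.2%, was 50.8% with loess offsets and 50.8% in thinned libraries, and ranged from 50.5% to 59.6% with 1 library left out. A gap limit of 5 kb gave 2329 clustered regions in 1403 runs, and 20 kb gave 7088 in 3618 runs. Counting only clustered regions covered to at least 50%, the ventricular overlap was 3.89%, against 2.58% of isolated regions. The difference in the share of counts was 1.06 percentage points without high-count regions (over 20 times the median CPM). The mean log2 ratio of clustered to isolated counts and the difference in the share of counts stayed above 0 in the alternatives run for them, and the neighbour correlation did except in thinned libraries (0.00). Depth limits the sham pools most, since 25.2% of clustered regions stood at 0 in sham pool 2.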

Other observations

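In the ventricle, the regions that met a hippocampal clustered region took 15.7% and 22.3% of counts under sham exposure, then 5.52% and 14.2% after 1 Gy. The high pair on chromosome 2 alone held 13.5%, 20.2%, 3.51% and 12% in the same order. Without it the other 273 ventricular regions held 2.20%, 2.10%, 2.01% and 2.17%, a narrow range over the 4 ventricular libraries. Their median counts, with the pair included, were 4 and 1 under sham exposure against 7 and 5 after 1 Gy, against 2, 0, 8 and 4 over all autosomal ventricular regions.

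Per chromosome, the share of tested clustered regions with both irradiated pools above both sham pools ranged from 23.7% on chromosome 2 to 32.3% on chromosome 19. The median log2 fold change ranged from 0.13 on chromosome 14 to 0.37 on chromosome 11, so under TMM it was above 0 on all 19 autosomes. Over all tested regions the share was 22.6% and the median 0.11, and their values per chromosome are not given. The chromosomes share 1 scaling, so their agreement adds no support. Over all chromosomes the clustered median was 0.23 under TMM, -0.03 with DESeq2-type factors and -0.13 with total counts.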
